A study of Mus musculus with 4 samples.

Results

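The MHC class I and immunoproteasome genes are 10 of the 32285 genes counted in T cells and antigen-presenting cells (APCs) from tumor-draining lymph nodes of mice. They were taken by symbol: B2m, H2-K1, H2-D1, Tap1, Tap2, Tapbp, Psmb8, Psmb9, Psmb10 and Nlrc5, and all 10 were found in the gene list of the files. The mice were wildtype and had been injected with tumor cells. They ate either control chow or, from day 3 after the injection, RGX-104 chow. RGX-104 activates the liver X receptors (LXR), nuclear receptors that sense oxysterols. All nodes were collected on day 8, and T cells and APCs were sorted by flow cytometry for single-cell RNA sequencing with 10x 5' chemistry. The strain, the number of mice and the tumor are not given in the sources used here. Each chow is represented by 1 RNA library, so no value below has a replicate and no comparison between chows was tested. All intervals are 95% intervals that cover counting error only.

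The control library held 782 annotated APCs (median 8051 UMIs, unique molecular identifiers) and 2099 annotated T cells (median 4944), and the RGX-104 library 949 APCs (median 9043) and 1995 T cells (median 5048). Levels are CPM, the UMIs of a gene per 1000000 UMIs of all genes over the cells of 1 type in 1 library. A ratio is always RGX-104 over control. The authors' type names are used as deposited, without spelling them out. The names were checked against marker genes. In mcDC1, mcDC2 and mLC the summed level of 6 markers of mature dendritic cells lay between 9083 and 13297 CPM in both libraries. In control and RGX-104 it was 129 and 181 CPM in rcDC1, 807 and 907 CPM in rcDC2, and 1261 and 924 CPM in Th1_01. In mcDC2, however, cDC1 markers (570 and 629 CPM) exceeded cDC2 markers (296 and 195 CPM) in both libraries. The mLC cells carried all 4 Langerhans markers (1604 and 1326 CPM), and Treg all 3 markers of regulatory T cells (1894 and 1920 CPM). In cells named mono, all 8 monocyte markers were present in each library (17680 CPM in control, 20695 CPM in RGX-104). The 2 CD8 markers of Tfh summed to 510 CPM (control) and 106 CPM (RGX-104), so the cells under that name held unequal amounts of CD8 transcripts. The libraries shared 15 annotated barcodes, 0.521% of the control and 0.510% of the RGX-104 cells.

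MHC class I molecules show fragments of a cell's own proteins to CD8 T cells. A heavy chain (H2-K1 or H2-D1) pairs with beta-2 microglobulin (B2m) in the endoplasmic reticulum. Tap1 and Tap2 together form the transporter that moves peptides in from the cytosol, and tapasin (Tapbp) holds the empty heavy chain beside it. The peptides come from the proteasome, in which interferon gamma replaces the constitutive catalytic subunits Psmb5, Psmb6 and Psmb7 with Psmb8, Psmb9 and Psmb10. Nlrc5 is the transactivator of class I promoters, the counterpart of Ciita for class II. Dendritic cells that have matured raise class I presentation, and cDC1 are known for showing taken-up antigen on class I.

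All 10 genes are protein coding. On GRCm38.p6, the assembly behind mm10, 7 of them lie on chromosome 17: H2-K1 (ENSMUSG00000061232) at chr17:33996012-34000619, H2-D1 (ENSMUSG00000073411) at chr17:35263094-35267497, Tapbp (ENSMUSG00000024308) at chr17:33919478-33929290, Psmb9 (ENSMUSG00000096727) at chr17:34182030-34187330, Tap1 (ENSMUSG00000037321) at chr17:34187556-34197225, Psmb8 (ENSMUSG00000024338) at chr17:34198195-34201454 and Tap2 (ENSMUSG00000024339) at chr17:34204479-34216321. Psmb10 (ENSMUSG00000031897) lies at chr8:105935728-105938392 and Nlrc5 (ENSMUSG00000074151) at chr8:94434335-94527272. B2m (ENSMUSG00000060802) lies at chr2:122147687-122153082. Psmb9, Tap1, Psmb8 and Tap2 follow each other in the class II region of the complex, while H2-K1 and H2-D1 sit on either side of it.

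Upstream sequences are shown because the results turn on how far H2-K1 and H2-D1 differ, and on Tap1 and Psmb9, which share a single stretch between their starts. The 4 sequences below come from RefSeq promoter windows on GRCm38.p6, cut to the bases before each start. RefSeq windows (250 bases before to 50 after the start) were found for 8 of the 10 genes, and Tap2 and Nlrc5 are named only. Capitals mark matches, on either strand, to 4 of the letter patterns searched: AANNGAAA (interferon regulatory factor core), GGGATTCCC (kappa B), TGACG (X2 box core, part of the element that the Nlrc5 complex binds) and CCAAT (Y box core, ATTGG on the other strand). B2m is chr2:122147437-122147686 on the plus strand, H2-K1 is chr17:34000334-34000583 on the minus strand (the second of 2 annotated starts), H2-D1 is chr17:35262844-35263093 on the plus strand, and the stretch between Psmb9 and Tap1 is chr17:34187331-34187555, read toward Tap1.
B2m: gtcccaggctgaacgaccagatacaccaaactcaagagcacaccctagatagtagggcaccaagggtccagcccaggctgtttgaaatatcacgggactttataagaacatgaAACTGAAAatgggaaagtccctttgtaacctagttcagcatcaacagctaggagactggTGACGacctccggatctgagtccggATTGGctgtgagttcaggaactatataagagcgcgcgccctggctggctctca
H2-K1: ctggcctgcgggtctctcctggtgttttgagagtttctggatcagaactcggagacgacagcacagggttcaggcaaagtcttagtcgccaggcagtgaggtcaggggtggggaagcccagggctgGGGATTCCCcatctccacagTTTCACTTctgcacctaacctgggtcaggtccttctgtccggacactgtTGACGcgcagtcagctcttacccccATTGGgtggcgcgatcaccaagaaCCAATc
H2-D1: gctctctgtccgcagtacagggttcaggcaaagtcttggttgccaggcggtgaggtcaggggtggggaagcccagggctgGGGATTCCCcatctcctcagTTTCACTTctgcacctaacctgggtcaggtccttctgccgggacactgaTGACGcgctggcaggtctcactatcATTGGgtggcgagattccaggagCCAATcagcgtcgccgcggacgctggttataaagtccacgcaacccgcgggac
Psmb9 to Tap1: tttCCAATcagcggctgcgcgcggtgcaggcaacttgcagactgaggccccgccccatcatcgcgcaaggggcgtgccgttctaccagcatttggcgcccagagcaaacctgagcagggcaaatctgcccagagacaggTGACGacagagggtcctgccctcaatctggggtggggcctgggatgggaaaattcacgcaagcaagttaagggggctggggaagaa

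The H2-K1 and H2-D1 windows matched at 217 of 242 aligned bases (89.7%). Both hold, in the same order, the kappa B match, the interferon regulatory factor match (TTTCACTT), the X2 core and the Y box. In H2-D1 the kappa B match lies at -170 to -162 from the start, and in this H2-K1 window at -124 to -116. B2m holds the X2 core and a Y box with an interferon regulatory factor match (AACTGAAA) at -137 to -130, and no kappa B match. Tap1 and Psmb9 run away from each other from starts 226 bases apart, and their windows share 275 bases, so a match there counts for both.

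Over the 8 genes with a window, the interferon regulatory factor core was found in 3 (B2m, H2-K1 and H2-D1), against 23.9% of all 32851 mouse windows. The X2 core was found in 5, against 20.8% of windows, and the Y box in 6, against 37.4%. The kappa B pattern was found in 2, against 0.353%. A gamma-activated sequence, TTCNNNGAA, was found in 1, Psmb8, against 8.30%. The LXR pattern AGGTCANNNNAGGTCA (DR4) was found in 0 of the 8 genes and in 0.0152% of windows. These are matches of letters in a window and say nothing of binding.

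In each library mcDC1 had the highest level of all types that held at least 50 cells there for 9 of the 10 genes, and mLC for B2m. The control order for B2m ran from mLC (8189 CPM) over mcDC1 (7517), mcDC2 (5723), mono (3246) and Treg (2830) to rcDC1 (1831). The first 4 of these stood apart from the next type by their intervals, while 11 of the 15 steps in the whole order of 16 types overlapped. H2-K1 ran from 7340 CPM in mcDC1 to 1507 CPM in rcDC1, and H2-D1 from 6457 CPM in mcDC1 to 1833 CPM in CD8_01. For H2-K1 9 of the 15 steps overlapped, and for H2-D1 10.

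**Figure D1:**
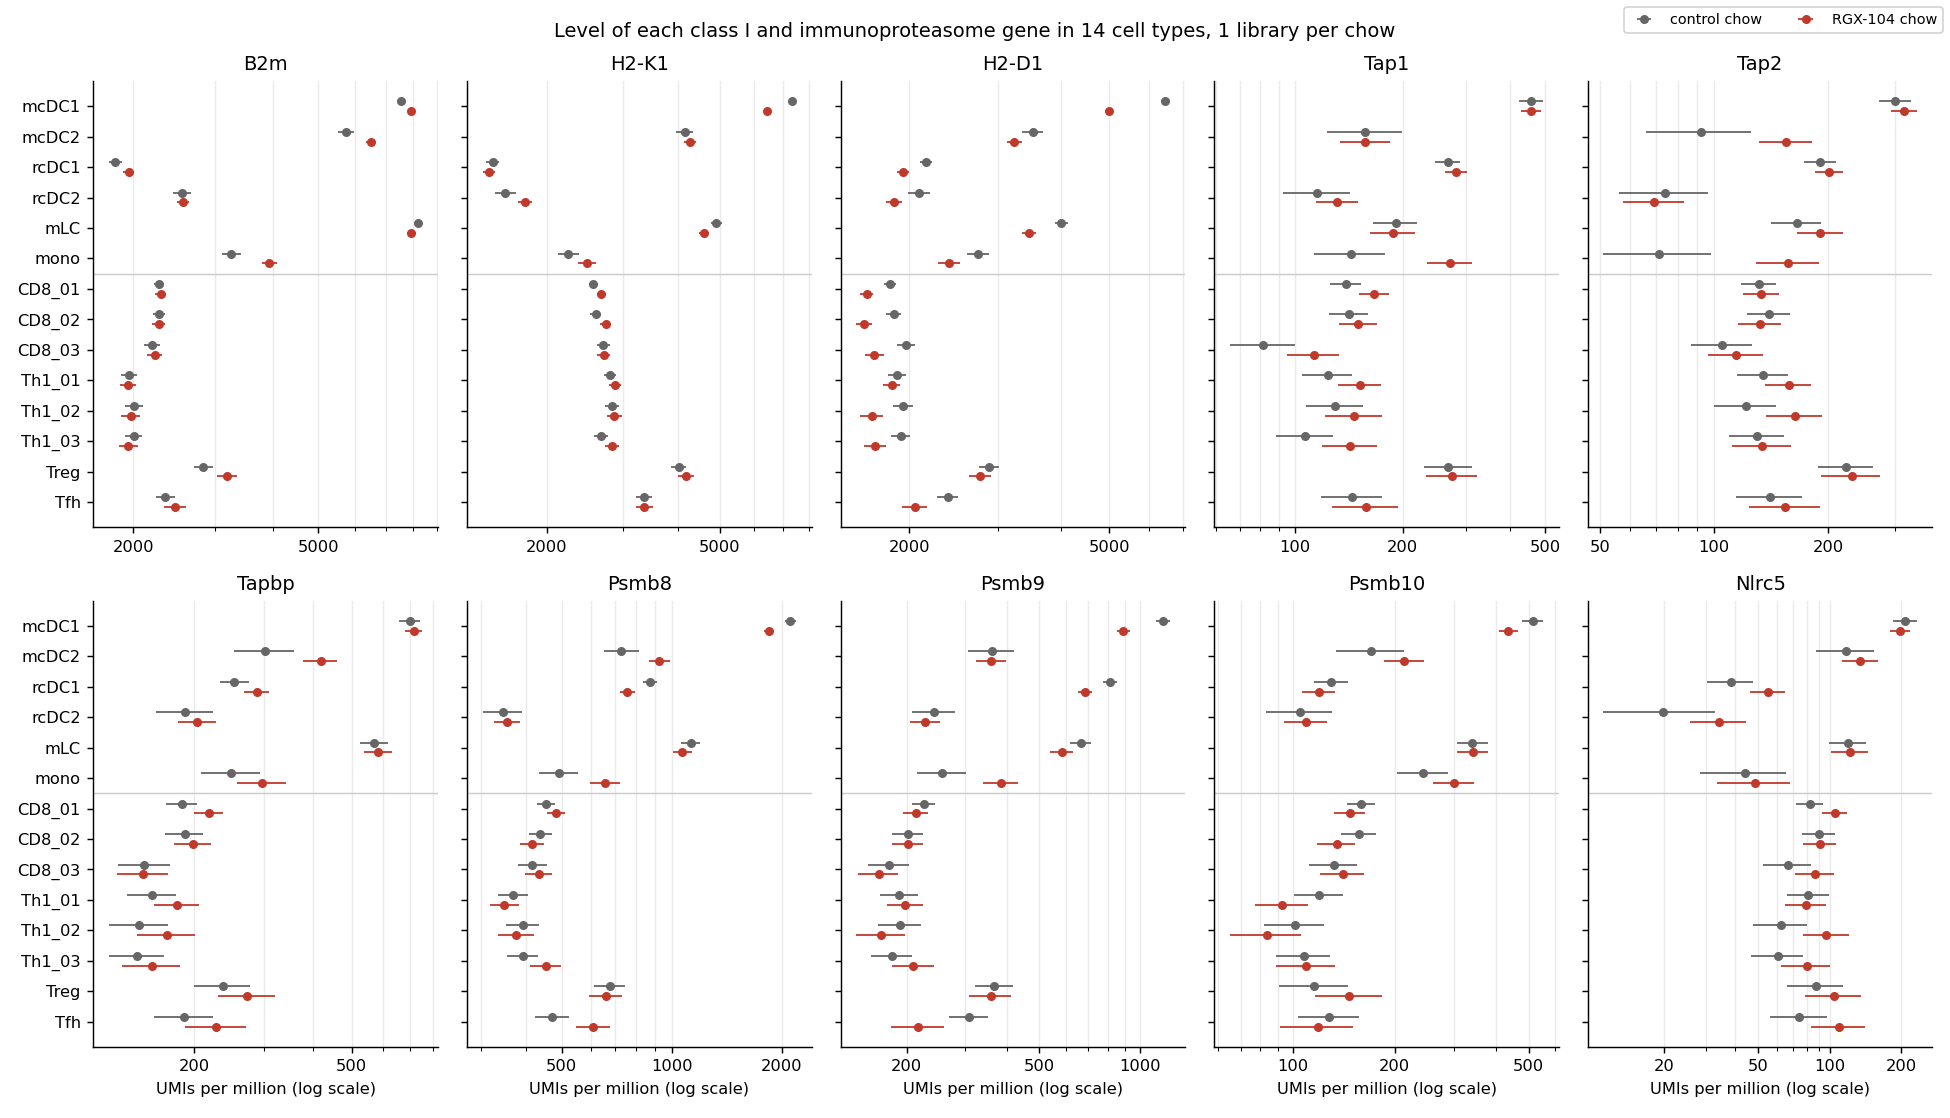
Level of each of the 10 genes (CPM, log axis) in the 14 compared types, control in grey and RGX-104 in red, with 95% Poisson counting intervals as bars. The mcDC1 points lie farthest right for every gene except B2m, where mLC leads, and the H2-D1 points of RGX-104 lie left of control in all 14 types.

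In control, Tap1, Psmb9 and Nlrc5 covered a wider span across types than the chains. Tap1 stood at 458 CPM in control mcDC1 and 56.3 CPM in gd T cells, a difference of 8.14 times. Psmb9 stood at 1171 and 123 CPM in the same types, a difference of 9.49 times. Nlrc5 spanned 10.4 times, from 207 CPM in mcDC1 to 19.9 CPM in rcDC2. In RGX-104, where gd T cells were under 50 cells and left out, the spans were 4.88 times (Tap1), 5.41 (Psmb9) and 5.80 (Nlrc5), beside 5.69 for B2m, 4.97 for H2-D1 and 4.37 for H2-K1. For Tap2 (301 CPM in mcDC1 down to 71.6 CPM in mono), Tapbp (700 CPM down to 143 CPM in Th1_03), Psmb8 (2112 CPM down to 344 CPM in rcDC2) and Psmb10 (513 CPM down to 101 CPM in Th1_02), the control span was 4.20 to 6.13 times. Of the 15 steps between neighbouring types, 14 overlapped for Tap2 and Nlrc5, 13 for Tap1 and Psmb10, and 12 for Tapbp and Psmb9. The order below mcDC1 is thus mostly within counting error for these genes.

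The types mcDC1 and rcDC1 differed least in Psmb9 and the transporter. The mcDC1 level over the rcDC1 level in control was 4.11 for B2m (3.96 to 4.26), 4.87 for H2-K1, 2.99 for H2-D1 and 2.77 for Tapbp. It was 1.72 for Tap1 (1.53 to 1.92), 1.58 for Tap2 and 1.44 for Psmb9, and 0.820 for the constitutive subunit Psmb5. Psmb8 stood at 2.42, Psmb10 at 3.96 and Nlrc5 at 5.42 (4.24 to 7.0). The same quotients in the RGX-104 library lay between 1.30 (Psmb9) and 4.37 (H2-K1), with Nlrc5 at 3.60 (2.97 to 4.39). Median depth was 7686 UMIs in control mcDC1 and 16248 in control rcDC1, and its part in these quotients was not tested.

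Between the rcDC types, rcDC1 carried more of the transporter, Psmb8 and Psmb9 than rcDC2, while the chains were near equal or lower. In control the rcDC1 level over the rcDC2 level was 3.37 for Psmb9, 2.54 for Psmb8, 2.57 for Tap2 (1.94 to 3.46) and 2.32 for Tap1 (1.85 to 2.94). It was 0.718 for B2m (0.680 to 0.758), 0.936 for H2-K1 and 1.03 for H2-D1. The RGX-104 library gave 3.01, 2.13, 2.90 and 2.15 for the first 4 and 0.764 for B2m. For Psmb10 the interval held 1 in both libraries, at 1.24 (0.962 to 1.61) in control and 1.09 (0.906 to 1.32) in RGX-104. Set against CD8_01 T cells in control, rcDC1 held 3.62 times the Psmb9 level, 0.589 times the H2-K1 level and 0.464 times the Nlrc5 level.

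Among CD4 T cells, regulatory T cells were compared with Th1_01. Treg over Th1_01 in control was 1.44 for both B2m and H2-K1, 1.84 for Psmb8, 1.93 for Psmb9 and 2.18 for Tap1 (1.74 to 2.73). For Nlrc5 the quotient was 1.08 (0.763 to 1.51). The RGX-104 library gave 1.46 for H2-K1, 1.89 for Psmb8, 1.80 for Psmb9 and 1.81 for Tap1, with Nlrc5 at 1.31 (0.931 to 1.83). For Psmb10 the quotient was 0.969 (0.723 to 1.29) in control and 1.58 (1.18 to 2.11) in RGX-104.

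The share of UMIs held by an immunoproteasome subunit, out of it and the constitutive subunit it replaces, is a ratio within the same cells. It is a share of RNA UMIs, so it is used to compare types and does not measure the amounts of the 2 subunits. In control, Psmb8 held 91.7% of the Psmb8 and Psmb5 UMIs in mcDC1, 91.0% in mLC, 87.6% in mcDC2, 79.1% in rcDC1, 71.0% in mono and 69.3% in rcDC2. The mcDC types and mLC were thus highest for this pair, and T cell types lay between them and rcDC2 (76.1% over all T cells). Psmb9 held 87.8% of the Psmb9 and Psmb6 UMIs in mcDC1, 82.9% in rcDC1 and 57.1% in Th1_03. Psmb10 took another order: its share of the Psmb10 and Psmb7 UMIs was highest in CD8_01 (80.4%) and lowest in mcDC2 (44.2%), with 76.7% in mcDC1 and 54.9% in rcDC1.

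**Figure D2:**
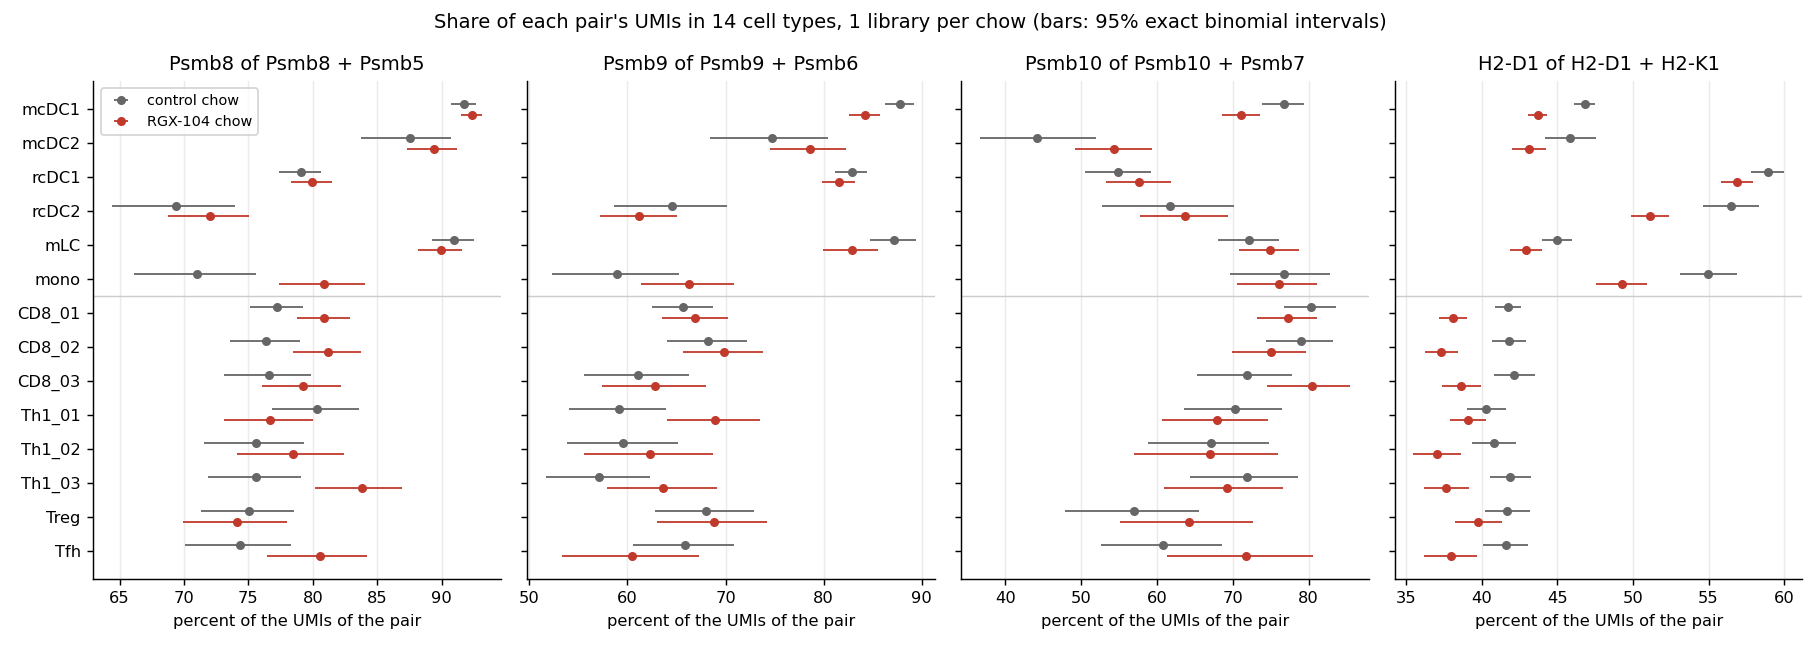
Share of UMIs in 4 gene pairs (percent of the pair, exact binomial 95% intervals as bars) in 14 types, control in grey and RGX-104 in red. The H2-D1 share lies lower in RGX-104 in all 14 types. The Psmb8 share lies higher in 11 of 14, the Psmb9 share in 9 and the Psmb10 share in 7.

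Between the chows, most of these genes differed little. Over 10 genes and 14 types (140 ratios, each from at least 50 UMIs over both libraries) the ratio ran from 0.704 to 2.19, and 116 ratios lay between 0.8 and its inverse. At least 1.5-fold higher in RGX-104 were 5 of the 140, against 4.59% of all 69091 gene and type pairs measured, and at least 1.5-fold lower were 0, against 4.62%. The 5 were Tap1 and Tap2 in mono, Tap2 in mcDC2, and Nlrc5 in rcDC2 and Th1_02. The interval lay above 1 in 29 ratios, against 6.16% of all pairs, and below 1 in 23, against 7.48%. For 4 of the 10 genes it lay above 1 in at least 1 type and below 1 in another, against 20.1% of the 1944 genes measured in all 14 types. These genes are deeply counted, so their intervals are narrow and leave out 1 at smaller differences.

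**Figure D3:**
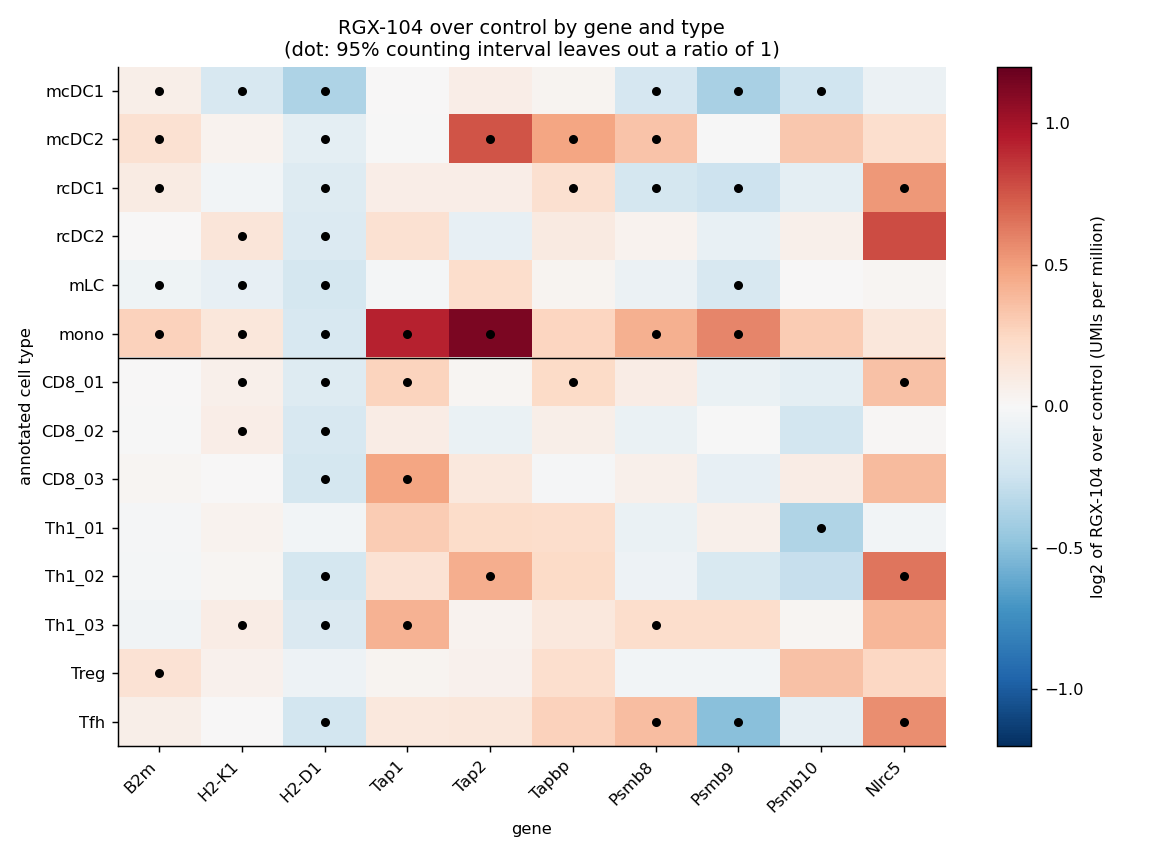
Log2 of the RGX-104 over control ratio for the 10 genes (columns) in 14 types (rows, APC types above the line, T cell types below), with a dot where the 95% counting interval leaves out a ratio of 1. The strongest red is Tap1 and Tap2 in mono, and the H2-D1 column is blue in every row.

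In all APCs together, the chains and the immunoproteasome did not share a direction. B2m stood at 4350 CPM (control) and 4708 CPM (RGX-104), a ratio of 1.08 (1.07 to 1.10). H2-K1 stood at 3497 and 3413 CPM (0.976, 0.960 to 0.992), but its ratio passed to the other side of 1 under other scalings. H2-D1 stood at 3428 and 3019 CPM (0.881, 0.866 to 0.896). The light chain was thus slightly higher and H2-D1 lower. The pool itself differed in make-up: control and RGX-104 held 53 and 9 pDC, 87 and 167 rcDC2, and 27 and 52 macrophages. The part of this in the pooled ratios was not tested beyond the other pools of types among the alternatives. Over all alternatives the log2 ratio of Psmb9 ran from -0.31 to -0.06.

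The peptide transporter, tapasin and Nlrc5 were all slightly higher in RGX-104 APCs. Tap1 stood at 248 and 265 CPM (ratio 1.07), Tap2 at 175 and 193 CPM (1.10), Tapbp at 393 and 427 CPM (1.09) and Nlrc5 at 86.3 and 96.9 CPM (1.12, 1.01 to 1.24). The catalytic subunits went the other way: Psmb9 at 669 and 557 CPM (0.831, 0.80 to 0.864), Psmb8 at 1019 and 950 CPM (0.932, 0.904 to 0.961) and Psmb10 at 248 and 238 CPM (0.962, 0.904 to 1.02). The Psmb8 ratio crossed 1 when all barcodes were compared, and the Psmb10 ratio, whose interval held 1, crossed it under other scalings. In total 5 intervals lay above 1 and 4 below, against 10.9% and 17.7% of the 10346 genes measured in APCs. None of the 10 was 1.5-fold higher or lower (4.14% and 4.44% of all genes). Their median log2 ratio was 0.03, beside -0.06 over all measured genes.

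In all T cells together, H2-D1 was again lower while Tap1, Tapbp and Nlrc5 were higher. H2-D1 stood at 1991 and 1761 CPM (0.884, 0.868 to 0.901) and Psmb10 at 141 and 130 CPM (0.925, 0.861 to 0.993). Tap1 stood at 134 and 159 CPM (1.19, 1.11 to 1.27), Tapbp at 178 and 199 CPM (1.12, 1.06 to 1.19) and Nlrc5 at 75 and 92.6 CPM (1.23, 1.13 to 1.35). H2-K1 stood at 2757 and 2823 CPM (1.02, 1.01 to 1.04). The other 4 had intervals that held 1: B2m (2196 and 2226 CPM), Tap2 (136 and 144 CPM), Psmb8 (456 and 472 CPM) and Psmb9 (224 and 216 CPM). That makes 4 intervals above 1 and 2 below, against 10.1% and 12.6% of the 10214 genes measured in T cells. None of the 10 reached 1.5-fold either way (2.92% higher and 1.66% lower over all genes), and the median log2 ratio was 0.04 beside -0.01 over all genes.

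Among the 14 compared types, the largest differences stood in the cells named mono, 75 in control and 78 in RGX-104. Their median depths were 6866 and 8315 UMIs. The smaller type named macrophages, given below, held larger ratios. The control library gave 71.6 CPM of Tap2 (39 UMIs) and the RGX-104 library 157 CPM (107 UMIs), a ratio of 2.19 (1.51 to 3.25). For Tap1 these were 143 CPM (78 UMIs) and 271 CPM (185 UMIs), with a ratio of 1.89 (1.45 to 2.50). Both parts of the peptide transporter were thus higher in RGX-104 mono cells. With these 2, 2 of 10 genes were at least 1.5-fold higher, against 7.8% of the 3295 genes measured in mono, and 0 were 1.5-fold lower, against 10%. Mono was singled out because earlier results of these data placed the largest difference of an interferon gamma and class I list there. Its counts are therefore a description and no independent evidence.

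The immunoproteasome subunits and the light chain of mono were higher by less. Psmb9 was at 255 and 383 CPM, with a ratio of 1.499 (1.22 to 1.86), just under 1.5-fold. Psmb8 stood at 490 and 657 CPM (1.34, 1.15 to 1.56) and B2m at 3246 and 3923 CPM (1.21, 1.14 to 1.28). H2-K1 stood at 2245 and 2474 CPM (1.10, 1.02 to 1.19). For Psmb10 (242 and 299 CPM; 1.23, 0.987 to 1.55), Tapbp (248 and 296 CPM; 1.19, 0.956 to 1.5) and Nlrc5 (44.1 and 48.4 CPM; 1.10, 0.630 to 1.94) the interval held 1, and Nlrc5 rested on 24 and 33 UMIs. H2-D1 alone was lower, at 2743 and 2401 CPM (0.875, 0.816 to 0.94). Over the 10 genes 6 intervals lay above 1 (9.65% of all genes) and 1 below (12.2%), and the median log2 ratio was 0.29 beside -0.05 over all measured genes.

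No single cell held the mono values. The cell with most UMIs of a gene held at most 12.8% of them for any of the 10 genes in either library. Tap2 was seen in 37.3% of control and 57.7% of RGX-104 mono cells, Tap1 in 66.7% and 74.4%, and Psmb9 in 72.0% and 88.5%. RGX-104 cells were deeper, so the cells were also thinned to 2000 UMIs each, which left 73 control and 74 RGX-104 cells. In 1 random draw the shares were 24.7% and 40.5% for Tap1, 35.6% and 48.6% for Psmb9, and 21.9% and 24.3% for Tap2. Each had an interval that overlapped that of the other library. For Tap1 the UMIs of a separate draw gave a log2 ratio of 0.15. The expected value over all draws, an alternative chosen after seeing that draw, was 0.74, beside 0.92 without thinning. For Tap2 the separate draw held 7 control and 17 RGX-104 UMIs, so single draws differ widely for this gene.

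Genes that work beside the immunoproteasome differed by about as much in mono. Psme2 and Psme1, the chains of the interferon-inducible PA28 cap, stood at 511 and 749 CPM (1.47, 1.27 to 1.70) and at 470 and 625 CPM (1.33, 1.14 to 1.56). Pomp, which assembles the core, had a ratio of 1.15 (0.971 to 1.37), and Psme3, a nuclear cap subunit, one of 0.768 (0.425 to 1.38). Of the 14 constitutive core subunits, 2 had an interval above 1 (Psma5 at 1.44 and Psma3 at 1.39) and 0 below, and 0 were 1.5-fold higher. The shares over all genes measured in mono were 9.65%, 12.2% and 7.8%. Psmb5, which Psmb8 replaces, stood at 200 and 155 CPM (0.776, 0.589 to 1.02). The Psmb8 share of that pair was 71.0% in control and 80.9% in RGX-104 mono cells. For Psmb9 the share of its pair was 58.9% (52.3 to 65.2) and 66.2% (61.3 to 70.9), with intervals that overlapped. The Psmb10 share of its pair was nearly equal, at 76.7% and 76.1%.

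Other class I and loading genes of mono gave a mixed picture. Of 16 other class I genes 7 were measured, of which H2-T22 (1.62, 1.21 to 2.19), H2-T23 (1.30, 1.11 to 1.53) and H2-Q7 (1.27) had intervals above 1, and Hfe, an iron regulator of the class I family, had one below (0.651, 0.427 to 0.987). Over all genes measured in mono, 9.65% had an interval above 1 and 12.2% one below. H2-M3, which shows formylated peptides, stood at 0.836 (0.538 to 1.30). Of the 11 genes of peptide loading and trimming 8 were measured and none had an interval clear of 1, with Sec61a1 highest at 1.34 and Bcap31 lowest at 0.684. Among 14 genes tied to cross-presentation, 8 were measured in mono and 4 had an interval below 1, against 12.2% of all genes. All 4 are parts of the phagocyte oxidase or, like Rac2, turn it on: Ncf4 at 0.473 (0.342 to 0.651), Rac2 at 0.687 (0.542 to 0.870), Cybb at 0.892 (0.815 to 0.977) and Cyba at 0.921 (0.851 to 0.998). Cybb and Cyba were chosen after their values were seen.

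**Figure D4:**
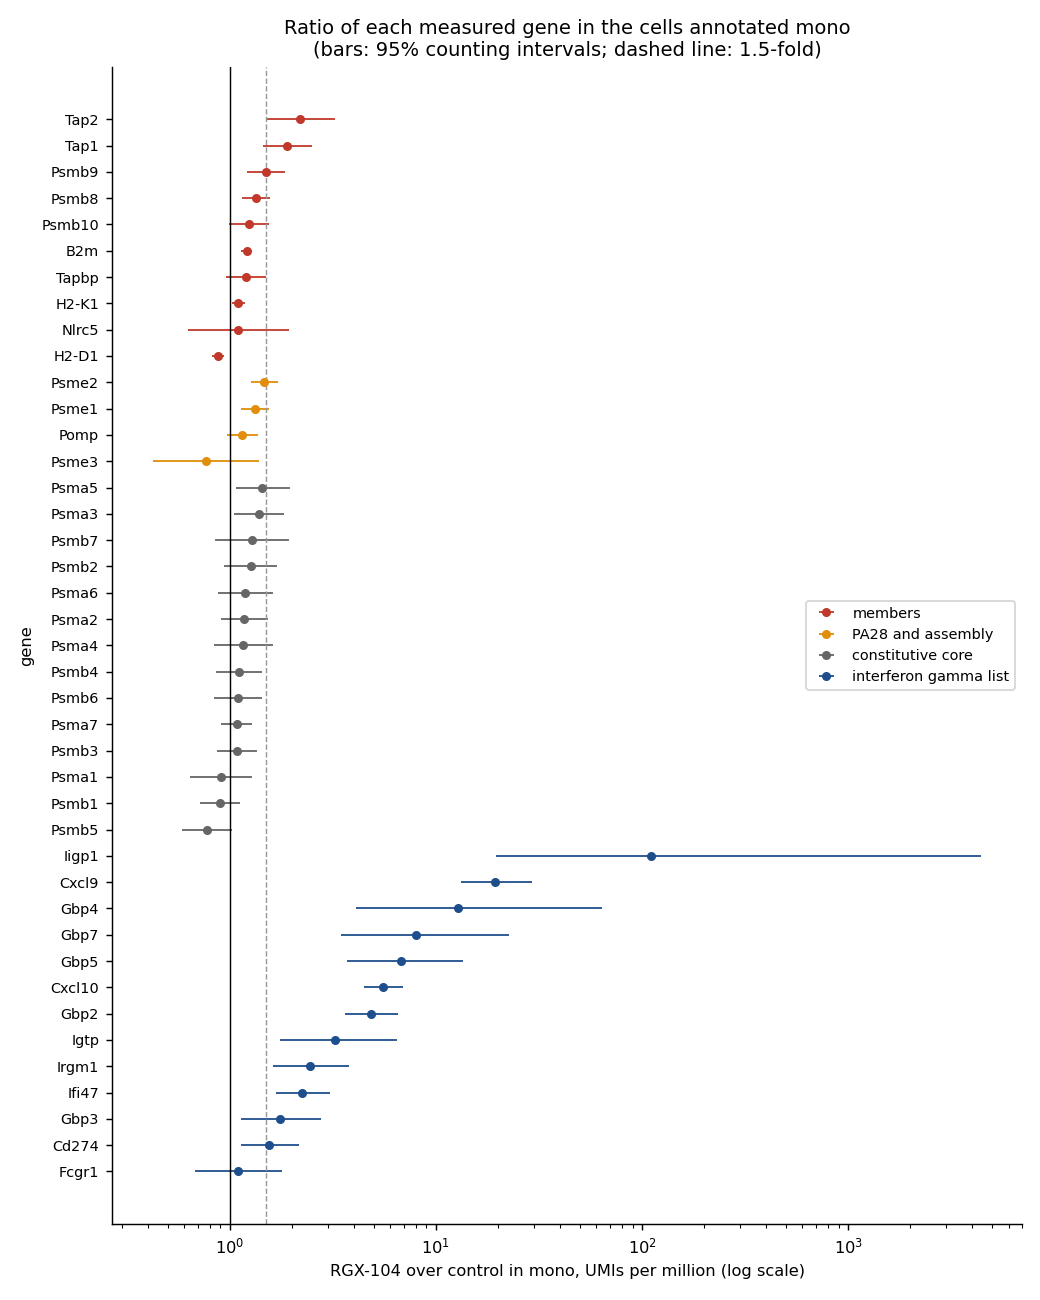
Ratio of RGX-104 over control (log axis, 95% counting intervals as bars) of each measured gene in the cells named mono, for the 10 genes in red, the PA28 and assembly genes in orange, the constitutive core in grey and an interferon gamma list in blue. Tap2 at 2.19 and Tap1 at 1.89 lead the 10 genes, and most of the interferon gamma list lies farther right.

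The genes most closely tied to interferon gamma differed far more in mono than the class I genes did. Of 17 genes in a reference list, 13 were measured and 12 were at least 1.5-fold higher, against 7.8% of all genes measured in mono. Because mono was chosen for such a difference in earlier results, this count is no independent evidence. The median log2 ratio of the list was 2.27, beside 0.29 for the 10 class I and immunoproteasome genes. Gbp4, a guanylate-binding protein, had 3 control and 48 RGX-104 UMIs, a ratio of 12.8 (4.12 to 64.1). Iigp1, an immunity-related GTPase, had 1 and 139, a ratio of 111 (19.6 to 4415). The lowest of the list were Fcgr1 at 1.10 (0.681 to 1.79), Cd274 at 1.56 and Gbp3 at 1.75. In all APCs 12 of 16 measured members of that list were 1.5-fold higher (median log2 0.90), against 4.14% of all genes. In T cells 5 of 14 were (median 0.49), against 2.92%. Of the 10 class I and immunoproteasome genes 0 were in either pool. A list of 18 type I interferon genes had 2 of 10 measured members 1.5-fold higher in mono, Isg15 (1.87) and Oasl2 (1.68), against 7.8% of all genes. In the same list 1 member was at least 1.5-fold lower, against 10% of all genes, and the median was 0.27.

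Genes that regulate class I transcription were measured beside them. Irf1 stood at 99.2 and 330 CPM in mono (3.33, 2.46 to 4.56). Socs1, the inhibitor that interferon gamma induces, stood at 20.2 and 113 CPM (5.59, 2.96 to 11.7). The interferon gamma receptor chain Ifngr1 was lower, at 645 and 505 CPM (0.783, 0.672 to 0.911), as was Nfkb1 (0.658, 0.507 to 0.851), while Irf9 had an interval that held 1 (0.710, 0.452 to 1.11). In all APCs Irf1 had a ratio of 1.24 (1.17 to 1.32). Irf8 was at 0.796 (0.766 to 0.826) over all APCs, while its mcDC1 ratio, given below, lay on the other side of 1. The types of the pool differed in cell numbers between the libraries, as given above, and the part of this was not tested.

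Ifng itself was seen in T cells only in small numbers: 58 UMIs in 32 of 2099 control cells and 275 UMIs in 57 of 1995 RGX-104 cells (5.06 and 24.3 CPM). A single RGX-104 CD8_01 cell held 80 of the 275. The cells named Cytotoxic T held 4 UMIs in 1 of 16 control cells and 102 UMIs in 15 of 44 RGX-104 cells. Tfh held 24 UMIs in 12 control cells and 34 UMIs in 15 RGX-104 cells. Its part in the mono values was not tested.

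Across mono cells, the summed class I and immunoproteasome level and the summed interferon gamma list level (per 10000 UMIs of a cell) had a Pearson correlation of 0.27 in control (75 cells) and 0.57 in RGX-104 (78 cells). In the other 13 types it lay between 0.08 and 0.47. Both sums come from the same cell and share its depth, so this is a description. In mono the summed level of 8 macrophage markers was 582 and 689 CPM (control and RGX-104), with Vsig4 at 0 in control and Mertk and Vsig4 at 0 in RGX-104. The 7 cDC2 markers stood at 806 and 830 CPM, with Cd209a and Cd7 at 0 in RGX-104, beside 1404 and 1223 CPM in rcDC2 itself. The 7 cDC1 markers stood at 217 and 356 CPM, the 6 mature dendritic cell markers at 373 and 286 CPM, the 10 pDC markers at 375 and 339 CPM and the 4 neutrophil markers at 178 and 139 CPM. The T cell markers stood at 23.9 and 32.3 CPM and the B cell markers at 62.5 and 49.9 CPM. Their part in the ratios was not tested, beyond the removal of 10 control and 5 RGX-104 cells with transcripts of another lineage, which left 3 of the 10 genes at least 1.5-fold higher.

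In the mcDC1 cells (166 in control, 214 in RGX-104, median depths 7686 and 8989 UMIs), the type with the highest levels, 5 of the 10 genes were lower in RGX-104. H2-D1 was at 6457 CPM (control) and 4991 CPM (RGX-104), a ratio of 0.773 (0.752 to 0.795), H2-K1 at 7340 and 6431 CPM (0.876, 0.854 to 0.899) and Psmb9 at 1171 and 892 CPM (0.762, 0.713 to 0.814). Psmb8 stood at 2112 and 1842 CPM (0.872) and Psmb10 at 513 and 435 CPM (0.847, 0.768 to 0.935). Both heavy chains and all 3 immunoproteasome subunits were thus lower. B2m was slightly higher, at 7517 and 7908 CPM (1.05, 1.03 to 1.08).

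Peptide transport and Nlrc5 differed less in mcDC1. Tap1 stood at 458 and 459 CPM (0.905 to 1.11), Tap2 at 301 and 318 CPM, Tapbp at 700 and 717 CPM and Nlrc5 at 207 and 198 CPM, each with an interval that held 1. Counted over the 10 genes, 5 intervals lay below 1 (11.3% of the 6074 genes measured in mcDC1) and 1 above (7.59%), with a median log2 ratio of -0.13 beside -0.03. Of the genes beside them, Psme2 stood at 0.886 and Pomp at 0.835, but the assembly factor Psmg2 at 1.32 (0.727 to 2.49). The constitutive core had a median log2 ratio of 0.05, with 2 intervals above 1 and 1 below. Lower values held for the other class I genes, where 7 of 10 members had an interval below 1 (median log2 -0.21). Ciita, the class II transactivator, had a ratio of 0.410 there and Ifngr1 one of 0.580, while Irf8 had one of 1.26. The summed mature markers of mcDC1 were also lower, 12895 and 11097 CPM (control and RGX-104). The 4 neutrophil markers were all at 0 in control and summed to 340 CPM in RGX-104, the 5 interferon markers stood at 584 and 322 CPM, and the 10 pDC markers at 529 and 354 CPM. Their part was not tested.

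The other APC types held differences in both directions. In mcDC2 (57 and 104 cells) Tap2 stood at 92.1 and 155 CPM (1.68, 1.19 to 2.44), Tapbp at 301 and 417 CPM (1.39, 1.14 to 1.70), Psmb8 at 728 and 925 CPM (1.27) and B2m at 5723 and 6487 CPM (1.13), so 4 of 10 intervals lay above 1, against 6.51% of genes measured there, and 1 gene was 1.5-fold higher, against 6.39%. H2-D1 had the 1 interval below 1 (3517 and 3237 CPM; 0.920, 0.866 to 0.978), against 8.92%. Langerhans markers in mcDC2 stood at 285 and 457 CPM and cDC2 markers at 296 and 195 CPM, and their part was not tested. In rcDC1 (135 and 138 cells) Nlrc5 stood at 38.2 and 55.0 CPM (1.44, 1.09 to 1.91) and Tapbp at 252 and 288 CPM (1.14), while Psmb9 stood at 813 and 684 CPM (0.841, 0.787 to 0.898) and Psmb8 at 874 and 757 CPM (0.866, 0.813 to 0.923). That type therefore had the activator higher and 2 of the subunits lower. Over the 10 genes it had 3 intervals above 1 (7.45% of all genes measured there) and 3 below (8.98%), and 6 of 7 measured interferon gamma list genes were 1.5-fold higher, against 4.2%. In mLC 4 intervals lay below 1 (B2m, H2-K1, H2-D1 and Psmb9), against 6.04% of genes measured there, and 0 above, against 6.13%. In rcDC2 H2-K1 stood at 1610 and 1783 CPM (1.11), and Nlrc5 had a ratio of 1.72 (0.958 to 3.27) from 15 and 56 UMIs, where 6.77% of genes were 1.5-fold higher.

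Among T cell types, Tap1 or Nlrc5 had the highest ratio of the 10 genes in CD8_01, CD8_03, Th1_02, Th1_03 and Tfh. In Treg it was Psmb10 (1.27, with an interval that held 1), and in CD8_02 no log2 ratio of the 10 exceeded 0.09. Tap1 and Nlrc5 each had an interval above 1 in 4 of the 14 compared types, against 6.16% of all gene and type pairs. Tap1 stood at 81.3 and 113 CPM in CD8_03 (1.38, 1.06 to 1.82), at 107 and 143 CPM in Th1_03 (1.34, 1.03 to 1.73) and at 139 and 167 CPM in CD8_01 (1.2). Nlrc5 stood at 62.1 and 96.7 CPM in Th1_02 (1.56, 1.10 to 2.22), where 3.65% of genes were 1.5-fold higher, at 82.3 and 105 CPM in CD8_01 (1.27) and at 74.2 and 109 CPM in Tfh (1.47). Over all 14 types the ratio was above 1 in 13 for Tapbp and in 12 each for Tap1, Tap2 and Nlrc5. It was above 1 in 11 types for H2-K1, in 9 for B2m, in 7 each for Psmb8 and Psmb10, and in 3 for Psmb9. The share of all genes that reach such counts was not computed. All types come from the same pair of libraries, so their directions are not independent.

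Psmb8 and Psmb9, which sit in the same assembled core, parted in Tfh. Psmb8 stood at 470 and 609 CPM (1.30, 1.11 to 1.51) and Psmb9 at 308 and 217 CPM (0.704, 0.560 to 0.883). The CD8 markers of Tfh differed between the libraries as given above, and their part was not tested. In Treg the single interval clear of 1 was that of B2m (2830 and 3181 CPM; 1.12, 1.05 to 1.2). In Th1_01 it was that of Psmb10 (119 and 93.0 CPM; 0.780, 0.609 to 0.998).

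H2-D1 had the same sign in every compared type. Its ratio was below 1 in 14 of 14 types, from 0.773 in mcDC1 to 0.976 in Th1_01 (median 0.882), and the interval lay below 1 in 12, all but Th1_01 and Treg. Of the 1944 genes measured in all 14 types, 1.59% were below 1 in every type and 1.95% above 1 in every type. Seen against H2-K1 in the same cells, the H2-D1 share of the H2-D1 and H2-K1 UMIs was lower in RGX-104 in 14 of 14 types. Over all APCs it was 49.5% in control and 46.9% in RGX-104, over all T cells 41.9% and 38.4%, in mono 55.0% and 49.2%, and in rcDC1 58.9% and 56.9%. Among types with fewer cells it was higher in RGX-104 in macrophages (44.2% and 49.8%), pDC (47.7% and 48.2%) and Cytotoxic T (43.4% and 43.5%).

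The same shift stood in barcodes that the authors did not annotate, 4465 in control and 5727 in RGX-104, where the H2-D1 share was 44.3% (43.9 to 44.7) and 41.2% (40.8 to 41.5). There the H2-D1 level itself was nearly equal (ratio 0.986, 0.970 to 1.003) and H2-K1 was higher (1.12). With 1 library each, the chow, the mice and the library cannot be told apart. H2-K1, H2-D1 and the H2-Q genes are near-identical over long stretches, so reads that fit several of them may be dropped or moved, and their counts are uncertain in both libraries.

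Smaller types give levels only. The cells named macrophages (27 in control, 52 in RGX-104) had all 10 genes between 1.76 and 6.47 times higher in RGX-104: B2m stood at 2856 and 5564 CPM, H2-D1 at 1468 and 3912 CPM (2.66, 2.32 to 3.07) and Tapbp at 80.1 and 518 CPM (6.47, 3.65 to 12.7). How many of all genes were higher there was not computed, so this count cannot be called particular to the 10 genes. The H2-D1 values came from 220 and 2431 UMIs, and 1 control cell held 26.4% of those 220. Their median depth was 4415 UMIs in control and 11398 in RGX-104, and ribosomal protein genes held 26.4% and 11.0% of their UMIs. Macrophage markers stood at 4577 and 7635 CPM, mature dendritic cell markers at 887 and 312 CPM and CD8 markers at 66.7 and 3.22 CPM, and the part of these in the ratios was not tested. The interval of Nlrc5 held 1 there, from 3 and 32 UMIs. In Gm26917+ mcDC (12 and 32 cells) Psmb10 had 0 control and 13 RGX-104 UMIs. The cells named IFN-responsive T (39 and 70 cells) carried 730 and 742 CPM of Psmb8 and 150 and 152 CPM of Nlrc5, above CD8_01 by 1.61 and 1.82 times in control. In pDC (53 and 9 cells), pre-DC2 (24 and 21), gd T cells (65 and 37), Cytotoxic T (16 and 44) and Bcat1+ T (30 and 58) the Tap1 ratio ran from 0.896 (Bcat1+ T) to 1.67 (gd T cells), each with an interval that held 1.

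Over all APCs and all T cells, the lists around the pathway held mostly small differences. In all APCs 8 of 12 measured other class I genes had an interval below 1, against 17.7% of all genes, and 1 above (Cd1d1, 1.18), against 10.9%, with a median log2 ratio of -0.21. H2-M3 stood at 0.814 (0.739 to 0.897). In T cells H2-T24 (1.34) and H2-Q6 (1.17) were higher and Mr1, which shows vitamin metabolites, was at 0.532 (0.335 to 0.828). Pdia3, a disulfide isomerase of the loading complex, stood at 0.824 in APCs and 0.813 in T cells, and Hspa5, a chaperone of the endoplasmic reticulum, at 0.836 and 0.802. Of the 14 constitutive core subunits, 3 had an interval below 1 in APCs (17.7% of all genes) and 6 in T cells (12.6%), and 0 had one above in either (10.9% and 10.1%). Psmb5 stood at 0.837 in APCs and 0.874 in T cells. The Psmb8 share of the Psmb8 and Psmb5 UMIs was accordingly 84.7% and 86.0% over all APCs and 76.1% and 79.0% over all T cells. The other pairs did not follow it throughout. Over all APCs the Psmb9 share of its pair was lower in RGX-104 (81.3% and 78.5%) and the Psmb10 share nearly equal (67.8% and 67.7%). Over all T cells these shares were 63.0% and 65.4% for Psmb9, and 72.7% and 71.3% for Psmb10.

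Genes with the most similar pattern were sought over 28 profiles, 14 types in 2 libraries, among 9515 genes with at least 200 UMIs, by the Pearson correlation of log2(CPM + 10) with the mean of the 10 standardized profiles. The 5 highest were Psme2 (0.957), Fam89a (0.951), Tmem128 (0.947), Psme1 (0.932) and Atmin (0.932). Psme2 and Psme1 are the PA28 chains described above. The 3 lowest were Rps27a (-0.950), Rpl28 (-0.888) and Prdx6 (-0.914), 2 of them ribosomal proteins. For Nlrc5 alone the 3 highest were H2-Q4 (0.916), H2-Q7 (0.896) and Rabgap1l (0.893). Among the 10 genes themselves, the 45 pairs ranged from 0.34 (Psmb9 and Nlrc5) to 0.94 (Tapbp and Psmb8), with a median of 0.68. The constitutive Psmb5 and Psmb6 stood at 0.27 and Psmb7 at 0.79. The profiles share libraries and the contrast of mature dendritic cells with the rest, so these values describe the types and carry no test.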

How the data were processed

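Of the series' 4 libraries, the 2 RNA libraries (control and RGX-104) were used, and the 2 T cell receptor libraries were not used here. The authors deposited counts of UMIs per gene and barcode, produced by Cell Ranger 5.0.0 per the file headers. Build mm10 and Seurat 5.0.3 are listed in the submitters' processing notes. The annotation tables that the authors deposited give each cell's type, its UMI and gene counts and its mitochondrial share in percent, without barcodes. Each of the 5825 annotated cells was joined to the 1 barcode with the same values, gene counts being taken over genes seen in at least 3 barcodes. The authors' doublet column calls all of them singlets, and no further filter was applied.

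UMIs were summed per library and type and divided by the summed total. A CPM carries an exact Poisson interval, a ratio an exact conditional binomial one and a share a Clopper-Pearson one, all at 95% and for counting error only. UMIs of a sorted sample with 1 library per chow allow no p-value between chows. A gene was measured in a comparison with at least 50 UMIs over both libraries, and types were compared with at least 50 cells in each (6 APC and 8 T cell types). The interval code was tested on simulated data.

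The 10 genes and all lists were chosen with earlier results of these data known. Mono was examined closely because those results placed the largest difference of an interferon gamma and class I list there. Named are all 10 genes in every comparison, and of each other list up to 3 genes with the highest and 3 with the lowest ratio in mono, all APCs and all T cells, with the 5 most and 3 least similar genes by profile and the 3 most similar to Nlrc5. A result of the list of class I regulators is not reported here. Genes named in single other types and from the type I interferon list were chosen after their values were seen. Promoter windows came from RefSeq on GRCm38.p6. Alternatives were scaling by TMM (edgeR 4.0.16, run in R 4.3.3) or by median-of-ratios factors, totals that leave out ribosomal protein, mitochondrial, immunoglobulin and receptor genes, thinning to 2000 UMIs, per-cell means, removal of the top cell or of cells with transcripts of another lineage, minimums of 10 and 200 UMIs, 2-fold, other pools of types, and all barcodes. Other values came from Python 3.11.15 with numpy 2.4.6, scipy 1.17.1 and pandas 2.3.3.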

Additional observations from a re-analysis of the deposited data

Results flagged for a closer look

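For 4 of the 10 genes the counting interval of the RGX-104 over control ratio lay above 1 in at least 1 type and below 1 in another, against 20.1% of the 1944 genes measured in all 14 types. The difference between the types was not tested in any of these cases. B2m had a ratio of 1.21 in mono and 0.967 in mLC. H2-K1 had 1.11 in rcDC2 and 0.876 in mcDC1. Psmb8 had 1.34 in mono and 0.866 in rcDC1. Psmb9, the subunit that replaces Psmb6, had 1.499 in mono and 0.704 in Tfh.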

How the results depend on the processing

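No paired analysis was possible because each chow has 1 RNA library. Over all APCs and over all T cells, 0 of the 10 genes were at least 1.5-fold higher under each alternative run. The median log2 ratio in all APCs (0.03) was 0.0934 with TMM factors, 0.0933 with median-of-ratios factors and 0.0857 over all barcodes, and that in all T cells (0.04) was 0.0857 over all barcodes. In mono, the count of genes at least 1.5-fold higher (2) was 1 with cells thinned to 2000 UMIs (Psmb9, with Tap2 left under 50 UMIs), 1 with genes of at least 200 UMIs (Tap1) and 1 at 2-fold (Tap2). It was 3 under 6 other alternatives, where Psmb9 passed 1.5-fold. The mono median (0.29) was 0.105 with thinned cells. Over the draws' expected value it was 0.40, an alternative added after the data were seen. The thinned ratios rest on 1 draw, with 32 and 36 UMIs of Tap1, which limits them. The detection shares in mono came from another draw. Signs reversed for H2-K1 in all APCs (main -0.03: 0.0286 with TMM, 0.0285 with median-of-ratios, 0.0637 over all barcodes), Psmb8 in all APCs (main -0.10: 0.017 over all barcodes) and H2-K1 in mono (main 0.14: -0.0151 with thinned cells), and the cause was not tested. Psmb10 in all APCs (main -0.06: 0.00675 with TMM, 0.00672 with median-of-ratios, 0.0164 with equal type weights) and Nlrc5 in mono (main 0.13: -0.0426 with per-cell means, -0.173 without cells of another lineage), whose intervals held a ratio of 1, also changed sign. Of 356 values of single genes under alternatives, 310 stayed within the counting interval, 41 moved beyond it without changing sign and 5 reversed. H2-D1 was lower in RGX-104 under every alternative run in all APCs (log2 -0.25 to -0.10), all T cells (-0.20 to -0.10) and mono (-0.22 to -0.12).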
